A study of Mus musculus with 3 samples.

Results

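The Hox genes of the mouse lie in 4 clusters, HoxA on chromosome 6, HoxB on chromosome 11, HoxC on chromosome 15 and HoxD on chromosome 2. Of the 22208 protein-coding genes examined, 38 Hox genes are described here, 10 in HoxA, 10 in HoxB, 9 in HoxC and 9 in HoxD. They were taken by name. The promoter window of a gene was made of all bases within 2 kb of any annotated transcript start of that gene, so that a gene with a single start had a window of 4001 bp and genes with several starts had longer ones. Coordinates are given on mm9, the build of the region lists.

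Chromatin from mouse embryonic stem cells (ESCs) was examined by ChIP-Seq in 3 libraries, each the only one of its group. Both H2A.Z libraries were prepared from lines carrying a lentiviral transgene for YFP-tagged H2A.Z, either wild type (H2A.Z-WT, genotype label H2AZ_WT) or with 3 residues of the acidic patch exchanged for those of H2A (H2A.Z-AP3, genotype label H2AZ-AP3). In both, the transgene was placed behind a CMV promoter that rtTA switches on with doxycycline (1 µg/ml), YFP-positive cells were sorted, and endogenous H2A.Z was depleted with hairpins against its 3′ untranslated region. Both were immunoprecipitated with an anti-GFP antibody, so only the tagged protein was measured, at the level the transgene gave. The other library profiled histone H3 trimethylated at lysine 27 (H3K27me3) in cells whose genotype label is WT, with no statement of doxycycline for that library. All 3 carry the strain label V6.5 (129SvJaexC57BL/6), whereas the transgenic lines are described as KH2 derivatives, and whether a line is 1 clone is not given in the sources used here. Cells were grown on irradiated feeder fibroblasts and passaged without them before ChIP.

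Each library is represented by a list of the regions called enriched at a P threshold of 1e-9, with a further list at 1e-12. A list holds starts and ends on a grid of 25 bp, with no read count, height or fold, so the depth behind a region is unknown and no call is not the same as no protein. With 1 library per group there is no replicate spread and no test between groups. Values below are therefore descriptions of these lists, and the intervals given are 95% Wilson intervals for counting error only. The lists held 78359 regions over 28.3 Mb for H2A.Z-WT, 14599 over 3.50 Mb for H2A.Z-AP3 and 16970 over 9.32 Mb for H3K27me3. The labelled cell type could be compared with its markers only at the level of calls, because the lists hold no expression. Of 8 ESC marker genes, Esrrb alone had H3K27me3 and H2A.Z-WT regions in its window, and Pou5f1, Nanog and Sox2 were among the others. All of the 4 fibroblast marker genes, Col1a1, Col1a2, Thy1 and Twist2, had regions of all 3 libraries. Some calls were short, with 25 bp of H2A.Z-AP3 at Thy1 and 75 bp at Col1a1. Col1a2 had 250 bp of H3K27me3 in a window of 17769 bp. Of the 22208 protein-coding genes, 1757 had regions of all 3 libraries, and 61.7% had H2A.Z-WT.

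Hox genes encode homeodomain transcription factors that give cells their position along the head to tail axis. Genes at the 3′ end of a cluster (low paralogue numbers) are active early and towards the head, and those at the 5′ end (high numbers) later and towards the tail and the limb tips. Genes with the same number in different clusters are paralogues, descended from 1 ancestral gene. In ESCs Hox genes are silent and are textbook targets of the Polycomb complexes, of which PRC2 deposits H3K27me3. H2A.Z is a variant of histone H2A that is placed in nucleosomes flanking promoters, and its acidic patch is a group of residues on the nucleosome surface.

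The stretches that carried the H2A.Z-AP3 calls are shown first. The bases below were read from mm9 in the direction of the gene, 30 from the middle of the H2A.Z-AP3 region named, with each CG dinucleotide in capitals. They were picked to show, by cluster, regions described further on.
Hoxa7, intron, chr6:52167523-52167552, minus strand: tcatgtgggCGgtcaCGtgcCGCGgCGagc
Hoxa3, intron, chr6:52162936-52162965, minus strand: actttgaaaaggggcctttttcaCGctctt
Hoxb13, intron, chr11:96057211-96057240, plus strand: cctgggtctgCGcttgatcttgCGctagag
Hoxc4, coding exon, chr15:102865173-102865202, plus strand: tgatggactctaactacatCGatcCGaaat
Hoxd9, coding exon, chr2:74536198-74536227, plus strand: ggccacCGgggcCGgggacacagggcCGgc
Hoxd3, last coding exon, chr2:74584523-74584552, plus strand: acctgctgaacctcacCGaaCGccagatca
The 30 bases just before the most upstream start are also shown for the paralogue group 8 genes, whose windows held almost no H2A.Z-WT. They come from another position than the stretches above, so their CG content cannot be compared with those.
Hoxb8, chr11:96143189-96143218, plus strand: ctttatcaataataaggaaattgatcatta
Hoxc8, chr15:102821023-102821052, plus strand: agagagctgcagcCGccCGagccCGcagcc
Hoxd8, chr2:74542642-74542671, plus strand: taagaaatgcaaaaagaaaaaggaaaaaaa

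H3K27me3 was called in the window of all 38 Hox genes, compared with 18.2% of all protein-coding genes. For H2A.Z-WT the count was 37 of 38, compared with 61.7% of all genes, and among genes with H3K27me3 the share with H2A.Z-WT was 95.2%. H2A.Z-AP3 was called at 21 of 38, compared with 23.2% of all genes, 35.6% of genes with H2A.Z-WT and 45.7% of the 3848 genes with both H2A.Z-WT and H3K27me3 (95% interval 44.1 to 47.2). The Hox share of 55.3% therefore lay near that of other genes carrying both. The 17 genes without H2A.Z-AP3 were Hoxa13, Hoxb1, Hoxb3, Hoxb7, Hoxb8, Hoxb9, Hoxc6, Hoxc8, Hoxc9, Hoxc10, Hoxc11, Hoxc12, Hoxc13, Hoxd8, Hoxd10, Hoxd12 and Hoxd13.

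The widest gap between Hox windows and the background was in the extent of H3K27me3. Its median coverage was 81.7% of the window over the Hox genes and 14.5% over genes with H2A.Z-WT and H3K27me3. Of the 38 genes, 28 had at least 75% of the window covered, against 5.20% of the 3848 genes. H2A.Z-WT covered a median of 19.6% of a Hox window, close to the 17.4% of those genes. H2A.Z-AP3 covered a median of 0.625% of a Hox window and 0% over those genes. Median windows were 4073 bp for Hox genes and 4889 bp for the genes with both marks.

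**Figure D1:**
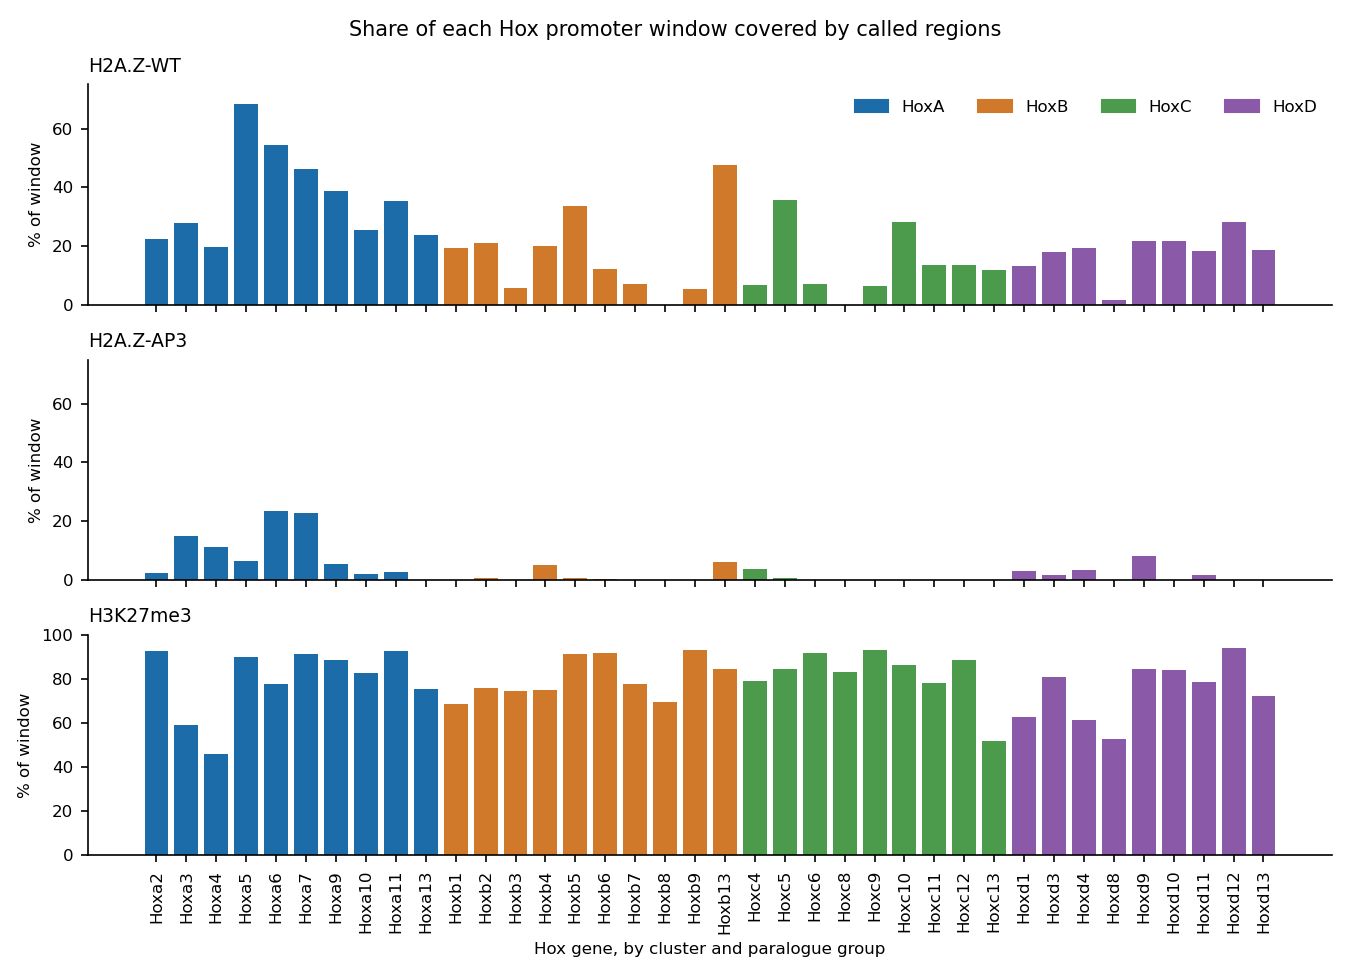
Percent of the promoter window (2 kb each side of every start) covered by called regions of each library, 1 bar per Hox gene, coloured by cluster and ordered by paralogue group, with no error bars because each library was made once. H3K27me3 bars lie between 45.7% and 93.8%, H2A.Z-WT bars between 0% and 68.4%, and the tallest H2A.Z-AP3 bars are those of HoxA, up to 23.4%.

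The H3K27me3 coverage was highest at Hoxd12 (93.8%), Hoxb9 (93.2%) and Hoxc9 (92.8%). These are a limb gene and a pair of genes of the thoracic region. All 3 windows lacked H2A.Z-AP3, and their H2A.Z-WT coverage was 28.1% at Hoxd12, 5.53% at Hoxb9 and 6.53% at Hoxc9. The lowest H3K27me3 coverage was 45.7% at Hoxa4, followed by 51.9% at Hoxc13, which acts in hair follicles, and 52.9% at Hoxd8. Even Hoxa4 lay above 82.2% of the genes with H2A.Z-WT and H3K27me3. Single H3K27me3 regions reached 10375 bp, and between the windows of the clusters 54.6% of the bases were covered, compared with 79.0% inside them.

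H2A.Z-WT coverage was highest at Hoxa5, a gene of lung and neck development, where 2736 bp or 68.4% of the window was covered, more than at 99.5% of the genes with both marks. It was followed by Hoxa6 (54.3%) and by Hoxb13 (47.5%), the last gene of its cluster, which is active in the tail and prostate. Hoxa7 came next with 46.4%. In 9 genes less than 10% of the window was covered. None of them was in HoxA, where the lowest value was 19.7% at Hoxa4. Such low coverage was not particular to Hox genes. Of the genes with both marks, 16.8% lay below Hoxc6 (7.30%) and 32.6% below Hoxc13 (11.9%). On chromosome 6, which holds HoxA, the genes with both marks had a median of 25.6%, against 17.4% over all such genes.

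The paralogue group 8 genes were the lowest. These genes pattern the trunk, and Hoxc8 specifies motor neuron pools of the lower neck segments. At Hoxc8 no base of the window was covered by H2A.Z-WT or H2A.Z-AP3, although H3K27me3 covered 83.1%. Its nearest H2A.Z-WT region lay 8498 bp from a start. Hoxb8 had 7 bp of H2A.Z-WT at the edge of its window, with 69.4% of H3K27me3. Hoxd8 had a single H2A.Z-WT region of 75 bp, with 52.9% of H3K27me3, and that region was not in the 1e-12 list. Widening the window to 5 kb brought H2A.Z-WT to 9.24% at Hoxb8 and 8.78% at Hoxd8, against a median of 11.8% over the 38 genes, and left Hoxc8 at 0%. CG content differed among these windows, and any link with H2A.Z-WT was not tested. There were 6.02 CG dinucleotides per 100 bp in the Hoxd8 window, 3.86 at Hoxb8 and 2.47 at Hoxc8, with a median of 3.65 over the Hox genes.

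H2A.Z-AP3 coverage was highest at Hoxa6, where 1550 bp or 23.4% of the window was covered, beside 3605 bp of H2A.Z-WT and 5135 bp of H3K27me3. Hoxa7, a gene of the thoracic region, followed with 1925 bp of H2A.Z-AP3 (22.9%), beside 3900 bp of H2A.Z-WT and 7678 bp of H3K27me3. Hoxa3, which is needed for the thymus and the parathyroid, came next with 1978 bp of H2A.Z-AP3 (14.9%), beside 3728 bp of H2A.Z-WT and 7851 bp of H3K27me3. The Hoxa3 and Hoxa6 values were not separate measurements. Hoxa3 has transcripts that begin upstream of Hoxa6, both windows held the same 3 H2A.Z-AP3 regions between 52161176 and 52163250, and these made up all 1550 bp of Hoxa6. Around its most downstream coding start alone, Hoxa6 had no H2A.Z-AP3 in the 1e-9 list and 1325 bp of H2A.Z-WT, whereas Hoxa3 kept 428 bp of H2A.Z-AP3. The 1e-12 list did hold an H2A.Z-AP3 region of 250 bp near that Hoxa6 start (chr6:52159026-52159275, the start being at 52158721), which shared no base with the 1e-9 list. Windows of 10 of the 38 genes shared bases with a neighbour in this way.

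At Hoxa7 the calls surrounded the main start. The longest H2A.Z-AP3 region in a Hox window, 975 bp (chr6:52167051-52168025), spanned the coding start at 52167504, whose surroundings (2 kb each side) held 1375 bp of H2A.Z-AP3, 2125 bp of H2A.Z-WT and unbroken H3K27me3. Only 125 bp of that region were in the 1e-12 list. A further H2A.Z-AP3 region of 400 bp lay over its last coding exon and one of 450 bp just downstream of its most upstream start.

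The other HoxA genes had shorter calls. Hoxa9, a gene of the lower trunk and of blood progenitors, had 475 bp of H2A.Z-AP3, 3463 bp of H2A.Z-WT and 7914 bp of H3K27me3. Hoxa4 had 450 bp, 800 bp and 1850 bp in the same order, in a single H2A.Z-AP3 region upstream of the gene. Hoxa5, with the widest H2A.Z-WT coverage, had 261 bp of H2A.Z-AP3 in 3 short regions, beside 2736 bp of H2A.Z-WT and 3601 bp of H3K27me3. Hoxa10, which acts in the lumbar spine and uterus, had 200 bp of H2A.Z-AP3, 2475 bp of H2A.Z-WT and 7991 bp of H3K27me3. Hoxa11 (125 bp) and Hoxa2 (100 bp) had H2A.Z-AP3 in the 1e-9 list and none in the 1e-12 list. Hoxa13, needed for the digits, had no H2A.Z-AP3 beside 974 bp of H2A.Z-WT.

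In HoxB, Hoxb13 had 250 bp of H2A.Z-AP3 in its intron, beside 1900 bp of H2A.Z-WT and 3380 bp of H3K27me3. Hoxb4, a regulator of blood stem cells, had 200 bp of H2A.Z-AP3, beside 800 bp of H2A.Z-WT and 3003 bp of H3K27me3. The calls at Hoxb2, Hoxb5 and Hoxb6 rested on single bins of 25 bp, and Hoxb5 and Hoxb6 shared theirs. All the HoxB H2A.Z-AP3 regions lay more than 1 kb from a start, and with a window of 1 kb no HoxB gene was called. In the 1e-12 list 2 HoxB genes were left, Hoxb13 and Hoxb4.

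In HoxC, Hoxc4 had 300 bp of H2A.Z-AP3, 550 bp of H2A.Z-WT and 6310 bp of H3K27me3. It held the only H2A.Z-AP3 region in a Hox window that shared no base with H2A.Z-WT, 125 bp in a coding exon (chr15:102865126-102865250), where H3K27me3 covered all 125 bp. Hoxc5 had a single bin of 25 bp, beside 1425 bp of H2A.Z-WT, and was not called in the 1e-12 list. From Hoxc6 to Hoxc13 no window held H2A.Z-AP3.

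In HoxD, Hoxd3 had 425 bp of H2A.Z-AP3, 4100 bp of H2A.Z-WT and 18372 bp of H3K27me3 in a window of 22709 bp made by 6 starts. Its largest H2A.Z-AP3 region, 275 bp, lay over the last coding exon. Hoxd9, a gene of the lumbar region, had 325 bp of H2A.Z-AP3, 875 bp of H2A.Z-WT and 3376 bp of H3K27me3, all of its H2A.Z-AP3 in 1 region in a coding exon of which 250 bp stayed in the 1e-12 list. Hoxd4 had 275 bp of H2A.Z-AP3, 1550 bp of H2A.Z-WT and 4905 bp of H3K27me3. Hoxd1 and Hoxd11 had 125 bp of H2A.Z-AP3 each. All 5 of these HoxD genes kept H2A.Z-AP3 in the 1e-12 list.

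Clusters were compared by counting each base of the joined windows once. In HoxA, H2A.Z-WT covered 21345 bp and H2A.Z-AP3 5514 bp, so that the mutant covered 25.8% as many bases as the wild type. In HoxB, HoxC and HoxD together the lengths were 23961 bp and 2025 bp, or 8.45%. Separately, HoxB gave 6.20%, HoxC 5.68% and HoxD 11.8%. Over all clusters the value was 16.6%. From the 1e-12 lists the values were lower, 17.1% in HoxA and 4.30% in the other clusters together. H2A.Z-WT itself was wider in HoxA, with 33.6% of the windows covered against 14.7% in the other clusters, while H3K27me3 covered 78.2% and 79.3%. Wild-type coverage was also wider on chromosome 6, where the genes with both marks had a median of 25.6% of the window, against 17.4% over all such genes and 31.6% over the HoxA genes. Outside the windows H2A.Z-AP3 had 7 regions within the clusters, 5 of them in HoxA and 2 in HoxC.

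**Figure D2:**
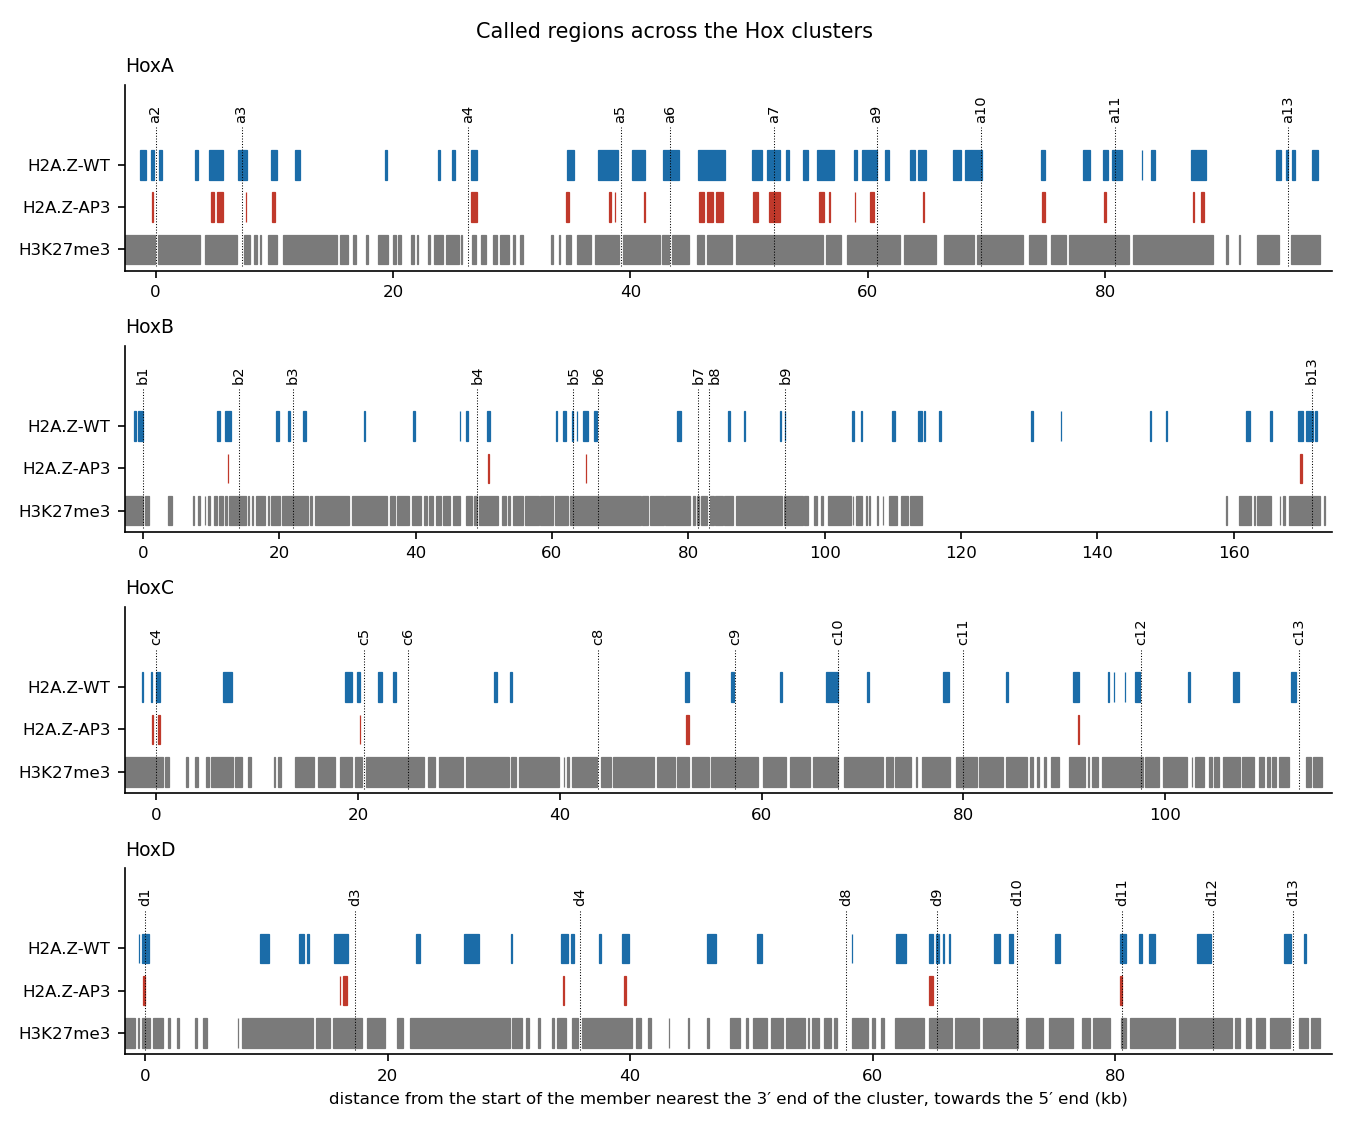
Called regions of the 3 libraries along each cluster (x axis in kb from the start of the member nearest the 3′ end, towards the 5′ end), with a dotted line at the most downstream coding start of each member and a minimal line width for short regions. H2A.Z-AP3 regions recur along HoxA and are few in HoxB, HoxC and HoxD, while H3K27me3 nearly fills long stretches of every cluster.

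The counts by cluster lay near those of their chromosomes. H2A.Z-AP3 was called at 9 of 10 HoxA genes, and at 172 of the 211 other genes on chromosome 6 that had H2A.Z-WT and H3K27me3 (81.5%, interval 75.7 to 86.2). It was called at 5 of 10 HoxB genes against 44.4% of such genes on chromosome 11, at 2 of the 8 HoxC genes with both marks against 35.5% on chromosome 15, and at 5 of 9 HoxD genes against 43.8% on chromosome 2. The intervals of the clusters were 59.6 to 98.2 for HoxA, 23.7 to 76.3 for HoxB, 7.15 to 59.1 for HoxC and 26.7 to 81.1 for HoxD. Each contained the share of its chromosome, but they are wide and count genes that share regions as separate. They therefore cannot decide whether a cluster differs from its chromosome. Over the 17 autosomes other than 6 and 8 the share ran from 34.8% to 52.0%, median 40.7%, and chromosome 8 had 77.4%. By covered length summed over genes, H2A.Z-AP3 came to 29.3% of H2A.Z-WT in HoxA and to 34.4% in the other genes of chromosome 6. The same values were 6.23% and 11% for HoxB and chromosome 11, 5.68% and 10.5% for HoxC and chromosome 15, and 11.4% and 8.75% for HoxD and chromosome 2. The HoxA cluster and its chromosome cannot be told apart in these lists.

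**Figure D3:**
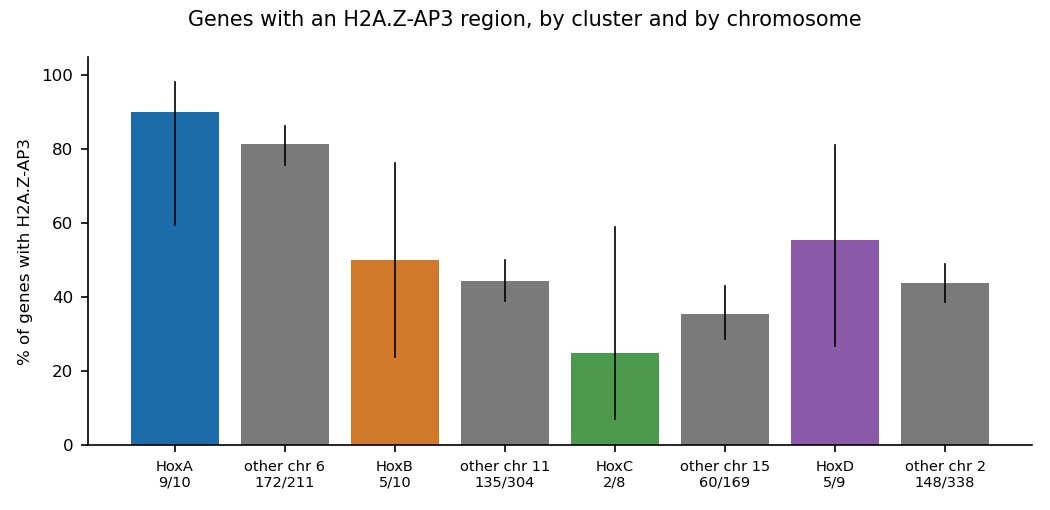
Percent of genes with H2A.Z-AP3 among those with H2A.Z-WT and H3K27me3, for each Hox cluster (coloured) and for the other genes of its chromosome (grey). Black lines are 95% Wilson intervals for counting error, and counts stand under the bars, 9 of 10 for HoxA beside 172 of 211 for the rest of chromosome 6.

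By paralogue group, H2A.Z-AP3 was called at all 4 genes of group 4, all 3 of group 5 and both of group 2, and at no gene of group 8 or group 12. In the list called at the stricter P threshold, all 4 genes of group 4 kept H2A.Z-AP3. Of group 5 only Hoxa5 kept it there, and of group 2 neither gene did. Groups of this size were not tested, and over all genes with both marks the share in the main list was 45.7%. In groups 1 to 4, towards the 3′ end of the clusters, 9 of 11 genes had H2A.Z-AP3, in groups 5 to 8 6 of 11, and in groups 9 to 13 6 of 16. Without HoxA the counts were 6 of 8, 3 of 8 and 3 of 12. This division was chosen after the values were seen. The median windows of the 3 stretches were 4507, 4821 and 4001 bp, or 6255, 4680 and 4001 bp without HoxA. Without HoxA the stretches with longer windows had the higher shares called, and the part of window length was not tested. Each gene called in groups 5 to 8 outside HoxA had a single bin of 25 bp. H3K27me3 did not run the same way, with medians of 74.4%, 84.4% and 84.4%. For H2A.Z-WT the medians were 19.4%, 12.4% and 21.9%. Among the 28 genes of HoxB, HoxC and HoxD, the 12 with H2A.Z-AP3 had a median H2A.Z-WT coverage of 19.7% (range 6.87 to 47.5) and the 16 without had 9.59% (range 0 to 28.1), so the ranges overlapped. Their H3K27me3 medians were 79.9% and 80.6%, and their median windows were about 4000 bp and about 4030 bp.

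The regions coincided within the windows. Of the bases covered by H2A.Z-AP3, 98.3% were also covered by H2A.Z-WT, and 27 of the 92 H2A.Z-WT regions held H2A.Z-AP3. Of the bases covered by H2A.Z-WT, 92.1% lay in H3K27me3, and in 21 genes every such base did. The median Hox gene had 100% of its H2A.Z-WT bases in H3K27me3, against 29.8% for the median gene with both marks. Other genes whose window was filled by H3K27me3 were close to the Hox genes. The median was 96.6% over the 173 other genes with H2A.Z-WT and H3K27me3 over at least 75% of the window. Among the Hox genes Hoxc13 stood at the other end, with 475 bp of H2A.Z-WT, none of it in H3K27me3, in a window with 2076 bp of H3K27me3. H2A.Z-AP3 regions were short, 33 of them with a median of 150 bp (range 25 to 975), against 425 bp for H2A.Z-WT and 1225 bp for H3K27me3. Of the 33, 20 held bases of the 1e-12 list.

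Most of the H2A.Z lay downstream of the starts. Over the 82 distinct starts of the Hox genes, 66.9% of the H2A.Z-WT bases and 71.0% of the H2A.Z-AP3 bases within 2 kb were downstream. The shares were 61.0% and 60.0% over the genes with both marks. In every set a base within 2 kb of several starts was counted once for each of them. Of the H2A.Z-AP3 bases so counted, HoxA starts gave 9658 downstream and 4285 upstream, and the other clusters 1837 and 413. A closer background was given by the 173 other genes with H2A.Z-WT whose window was covered by H3K27me3 over at least 75%, where 64.8% of the H2A.Z-WT bases and 76.9% of the H2A.Z-AP3 bases were downstream. By the most upstream start alone the H2A.Z-AP3 share of the Hox genes was 62.3%, against 68.2% over the genes with both marks and 76.5% over the 173, so whether the Hox share was above or below the background depended on the starts and the genes compared. H3K27me3 was spread evenly in Hox genes (50.5% downstream) and in the 173 genes (51.7%), against 59.3% over the genes with both marks. By the midpoint of the region, 35 of 92 H2A.Z-WT regions and 13 of 33 H2A.Z-AP3 regions were in coding exons, 11 and 6 of them in the last coding exon, which in Hox genes encodes the homeodomain. For H3K27me3 18 of 131 midpoints were in coding exons and 50 were in introns. The share of window bases that are coding was not computed, so no preference for exons can be read from these counts.

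At the start itself the H2A.Z-WT calls were spread unevenly over the clusters. They covered 18 of 31 starts in HoxA (58.1%) and 7 of 51 in HoxB, HoxC and HoxD (13.7%). Starts of 1 gene share sequence and are not independent. The share was not computed for other starts of chromosome 6, nor by cluster with 1 start per gene. HoxA therefore cannot be told apart from its chromosome here either. Of the 312 starts of the 173 other genes with broad H3K27me3, 51.6% were covered by H2A.Z-WT. Counting only the most upstream start of each gene, the values were 18.4% of 38 Hox genes and 49.7% of the 173, and by the most downstream coding start they were 31.6% and 51.4%. The 173 genes had a median H2A.Z-WT coverage of 34.7% of the window, against 21.9% for the 28 Hox genes that met that limit. The shares with H2A.Z-AP3 were 42.8% and 60.7%. HoxA genes are among those 28, and on chromosome 6 the mutant was present at 81.5% of the other genes with both marks. The 173 genes were not matched by chromosome, so whether Hox genes differ from them in H2A.Z-AP3 was not tested. H3K27me3 dipped at the start in both sets, to 64.6% of Hox starts from 89.0% at 600 bp upstream and 90.2% at 1375 bp downstream, and to 66.0% of the other starts. At 24 of the 82 Hox starts neither H2A.Z-WT nor H3K27me3 was called, at 33 H3K27me3 alone, at 20 both, and at 5, all in HoxA, H2A.Z-WT alone.

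**Figure D4:**
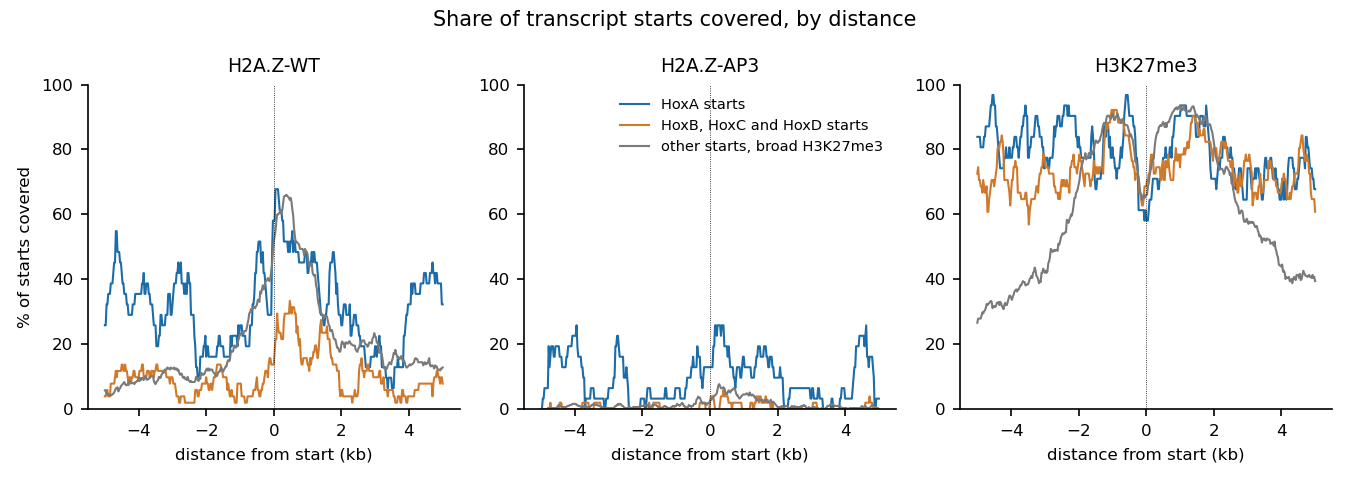
Percent of transcript starts covered by regions of each library at distances from 5 kb upstream to 5 kb downstream in steps of 25 bp, for 31 HoxA starts, 51 starts of the other clusters and 312 starts of other genes with H2A.Z-WT and H3K27me3 over at least 75% of the window. H2A.Z-WT at the start reaches 58.1% in HoxA, 13.7% in HoxB, HoxC and HoxD and 51.6% at the other starts, and H3K27me3 dips at the start in all sets.

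Bases under H2A.Z regions in Hox windows were rich in CG dinucleotides. There were 5.98 per 100 bp under H2A.Z-AP3, 5.98 under H2A.Z-WT without H2A.Z-AP3 and 2.70 under neither. In windows of the genes with both marks the values were 5.45, 5.65 and 1.81. Under H2A.Z-AP3 the content ran from 3.38 per 100 bp in HoxC to 8.92 in HoxD, where the Hoxd9 region shown above had 12.6. These values rest on only 325 bp in HoxC and 1200 bp in HoxD. The 3 regions that Hoxa3 and Hoxa6 share had between 2.75 and 4.33.

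Genes that work with or next to Hox genes were looked up by the same windows. The shares over all protein-coding genes were 61.7% for H2A.Z-WT, 18.2% for H3K27me3 and 23.2% for H2A.Z-AP3. H2A.Z-AP3 was called at 35.6% of genes with H2A.Z-WT and at 45.7% of genes with both marks. The lists below are short, and no test was run on them. Of the Meis and Pknox genes, whose proteins bind DNA with Hox proteins, Meis1, Meis2, Meis3 and Pknox2 had H2A.Z-WT and H3K27me3, Pknox1 had H2A.Z-WT alone, and none of these 5 had H2A.Z-AP3. All 6 ParaHox and Cdx genes, relatives and regulators of Hox genes, had H2A.Z-WT and H3K27me3, with medians of 20.6% and 67.8% of the window, and none had H2A.Z-AP3. Evx1, beside HoxA on chromosome 6, had 675 bp of H2A.Z-AP3, 1450 bp of H2A.Z-WT and H3K27me3 over its whole window of 4055 bp. Evx2, beside HoxD, had 1175 bp of H2A.Z-WT and 3993 bp of H3K27me3 without H2A.Z-AP3. Of 6 genes of the retinoic acid pathway, which controls Hox genes in the embryo, all had H2A.Z-WT, 3 had H3K27me3 and 2 had H2A.Z-AP3. Cyp26a1, an enzyme that breaks down retinoic acid, had 850 bp of H2A.Z-AP3, 2325 bp of H2A.Z-WT and 2975 bp of H3K27me3, and Cyp26b1 on chromosome 6 had 100 bp of H2A.Z-AP3.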

How the data were processed

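ChIP-Seq was performed on mouse ESCs in 3 libraries, 1 per group, with groups read from their labels for genotype and antibody. The authors aligned single-end reads to mm9 with Bowtie (version 0.12.3 in the submitters' processing notes, which also name bedtools), counted extended reads in 25-bp bins and called bins enriched over a Poisson background and over input. The deposited files hold only start and end coordinates of enriched regions, called per library at 1e-9 (used for all main values) and, by the list's name, 1e-12. Input and reads were not analysed here.

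Gene models were GENCODE vM1 on mm9, chromosomes 1 to 19 and X. A gene was called if at least 1 bp of a region lay in its window, and coverage is the percent of window bases inside regions. Sequences and CG counts were read from the mm9 genome. Genes named with full values were, by rule, the 12 with the most H2A.Z-AP3 bases (13 with a tie), those lacking H2A.Z-WT, and the highest 3 and the lowest of each library. Other genes are given by counts and ranges, or were named after their values were seen. Part of the list of Hox cofactors is not reported here. The members, gene lists and comparisons were chosen with earlier results of these data known. Base counting was checked on 200 simulated windows, with 0 errors. Python 3.11.15, NumPy 2.4.6, SciPy 1.17.1 and Matplotlib 3.10.9 were used. Alternatives covered the 1e-12 list, both lists joined, windows of 1 and 5 kb, other choices of starts, a minimum of 100 bp and regions joined across 1 kb.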

Additional observations from a re-analysis of the deposited data

How the results depend on the processing

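No paired analysis was possible because each group is 1 library. The counts of Hox genes with H2A.Z-WT (32 to 37), H2A.Z-AP3 (15 to 24) and H3K27me3 (38 throughout) and the HoxA count with H2A.Z-AP3 (7 to 10) stayed within 1.5 times the reported ones under all alternatives run. With the 1e-12 list, H2A.Z-AP3 was called at 2 HoxB genes and 1 HoxC gene, the ratio of H2A.Z-AP3 to H2A.Z-WT bases was 11% over all clusters, 17.1% in HoxA and 4.30% elsewhere, the H3K27me3 median was 73.7%, 87.8% of H2A.Z-WT bases lay in H3K27me3, 99.4% of H2A.Z-AP3 bases lay in H2A.Z-WT, and 67.3% of H2A.Z-AP3 bases were downstream. A window of 1 kb gave 0 HoxB genes, a ratio of 19.0% and 89.8% of H2A.Z-WT in H3K27me3. A window of 5 kb gave 4 HoxC genes and an H2A.Z-WT median of 11.8%. With at least 100 bp, 2 HoxB genes and 1 HoxC gene were called. The most upstream start gave 1 HoxC and 3 HoxD genes, 100% of H2A.Z-AP3 in H2A.Z-WT, and placed 71.5% of H2A.Z-WT, 62.3% of H2A.Z-AP3 and 51.7% of H3K27me3 bases downstream. The most downstream coding start gave ratios of 14.5% over all clusters and 21.4% in HoxA and a downstream share of 72.4% for H2A.Z-WT. Joining regions across 1 kb gave medians of 27.4% for H2A.Z-WT and 100% for H3K27me3, 99.2% of H2A.Z-WT in H3K27me3 and 100% of H2A.Z-AP3 in H2A.Z-WT. Over all protein-coding genes, the shares with each library (wild type, mutant and H3K27me3, in that order) were 60.1%, 18.8% and 15.8% with the 1e-12 list, 59.3%, 21.2% and 16.2% with 1 kb, 66.3%, 27.4% and 19.8% with 5 kb, 58.9%, 20.8% and 16.9% by the most upstream start, 50.5%, 17.3% and 13.8% by the most downstream coding start, and 59.7%, 18.7% and 16.7% with at least 100 bp, while protein-coding transcripts gave 60.9% for the wild type and 22.3% for the mutant. Among genes with H2A.Z-WT and H3K27me3, H2A.Z-AP3 was at 37.1% with the 1e-12 list, 43.4% with 1 kb, 49.4% with 5 kb, 41.0% and 41.6% by those same starts and 37.8% with at least 100 bp. The causes of these shifts were not tested. In each setting run, the ratio of H2A.Z-AP3 to H2A.Z-WT bases was higher in HoxA than in the other clusters together. The lists carry no depth, so a missing call cannot be separated from too few reads.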
